A study of Mus musculus with 123 samples.

Results

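Cardiomyocytes at birth (P1, the day after birth) were compared, gene by gene, with cardiomyocytes at midgestation (E12.5, in days of embryonic development) in single αMHC-GFP+ cells of mouse hearts. The comparison covered 60 of the 123 deposited cells, namely 40 P1 cells and 20 E12.5 cells. The E12.5 cells were those whose titles start with C, which are called set C here, out of 29 cells labelled E12.5. Of 52 cells labelled P1, 41 had 2000 or more genes at 1 count or more and 11 did not. The P1 cell just outside that limit had 1985 genes and the lowest P1 cell inside it had 2124. A single P1 cell was then left out because its summed Ttn, Actc1, Myh6 and Tnnt2, which encode major proteins of the contractile apparatus, came to 258 CPM, that is, counts scaled to an equal total in every cell. The same sum was 32894 CPM in the lowest P1 cell kept and 11906 CPM in the lowest E12.5 cell. In all, the study held αMHC+ cells of 3 time points, captured on the Fluidigm C1 system.

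Both groups came from hearts of the αMHC-GFP strain, with no further allele or agent named. The reporter is driven by the promoter of αMHC, the gene Myh6, so only cells in which that promoter had been active were sorted. Embryonic hearts were digested with collagenase and neonatal hearts with a Liberase enzyme blend, so the digestion and the age cannot be told apart. The labels name no animal, litter or chip. Each age was therefore read as 1 sample of pooled cells, the spread over cells is given as a description, and no p-value was computed. The term "called" below means a mean CPM at least 2-fold apart in the same direction both in all counts and after every cell had been thinned to 100000 counts.

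In the heart, the last part of gestation and the first days after birth are known as the time when cardiomyocytes go from building the organ by division to enlarging and specialising. Fetal muscle draws on glucose and lactate and uses embryonic isoforms of several contractile proteins, whereas the postnatal heart burns mainly fatty acids in densely packed mitochondria. The sarcoplasmic reticulum, the calcium store of the muscle cell, and the creatine phosphate shuttle, which carries energy from mitochondria to myofibrils, are also known to mature around birth.

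Sequencing depth and complexity differed between the ages. E12.5 cells had 148258 to 738496 counts (median 389394) and 2819 to 5749 genes (median 4175.5), and P1 cells had 69522 to 327360 counts (median 148499) and 2124 to 4156 genes (median 2877.5). After thinning, which 3 P1 cells were too shallow to enter, the median was 3657.5 genes in 20 E12.5 cells and 2859 genes in 37 P1 cells, so P1 cells also had fewer genes at equal depth. The 10 highest genes of a cell took a median of 9.86% of its counts at E12.5 and 16.6% at P1. One count in a median cell stood for 2.57 CPM at E12.5 against 6.73 CPM at P1. The libraries carry no molecular identifiers, so the intervals of counts cover counting error only, and the intervals of shares of cells treat the cells of 1 age as independent draws although each age is 1 sample.

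The cells of both ages carried the defining markers of cardiomyocytes. The summed level of 9 cardiomyocyte markers was 16042 to 63285 CPM at E12.5 against 46343 to 124610 CPM at P1. This list includes the 4 genes whose sum dropped a P1 cell, so its lowest value at P1 was partly set by that choice. Markers of blood, vessel and connective tissue cells were near or at 0. The 9 erythroid markers found in the files had no count in any cell, the 12 endothelial markers reached at most 28.8 CPM at E12.5 against 59.7 CPM at P1, and the 10 fibroblast markers reached at most 513 CPM at E12.5 against 0 at P1. Neural and glial markers (8 genes) summed to at most 20.3 and 130 CPM, and macrophage and leukocyte markers (10 genes) to 229 CPM in 1 E12.5 cell and 636 CPM in 1 P1 cell. Among 8 epicardial markers, Tbx18 was called lower at P1 (110 and 20.3 CPM, with 17.2 CPM in N523 cells), and the list summed to at most 595 CPM at E12.5 against 372 CPM at P1. The 9 smooth muscle markers were the exception, with sums of 37.05 to 10003 CPM at E12.5 against 0 to 5825 CPM at P1. This level came from Acta2, Tagln and Cnn1, which embryonic cardiomyocytes also express, and the share of other cell types in it was not tested. At 10 counts or more, genes of the Y chromosome alone were found in 12 E12.5 and 28 P1 cells. Xist, an RNA of female cells, was found alone in 5 and 5, and neither in 3 and 4. Both were found in 0 E12.5 and 3 P1 cells, and whether those captures held more than 1 cell was not tested.

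A single E12.5 cell stood apart. It had the most genes of its group (5749, or 4864 after thinning, where the next cell had 4387). It held 13 of the 28 genes gained by P1 that are described below, and the other 19 cells held at most 3. Its Ckm (483 CPM), Casq2 (1468 CPM), Fabp3 (3198 CPM) and Myh6 (5535 CPM) were the highest of set C. Without this cell, 794 genes in place of 763 were called higher, 1387 in place of 1397 were called lower, 22 in place of 28 were gained and 41 in place of 58 were lost. The median share of E12.5 cells was 10% over the gained genes and 50% over the lost genes, the limits of the rules given below. Leaving out any E12.5 cell shifts such a limit in cells, so the fall in both numbers cannot be laid to this cell alone. Titles ending in no, which the labels do not explain, belong to 9 of the 20 E12.5 cells and 2 of the 40 P1 cells. Without those cells 817 genes were called higher, 1206 lower and 47 lost, of which 575, 916 and 30 were also called with all 60 cells. Another set of 8 E12.5 cells, titled N523, was kept out of the comparison and is given beside single results. With N523 in place of set C, 1271 genes were called higher and 1146 lower, of which 439 and 480 were also called against set C, so the gene calls depend on which E12.5 cells are used.

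Genes counted as measured had an average of the 2 group means of 20 CPM or more and were found in at least 10 of the 60 cells. Of 5412 such genes, 763 (14.1%) were called higher at P1 and 1397 (25.8%) were called lower, and 3252 were not called. The measured genes held 93.7% of the counts at E12.5 and 95.8% at P1. The genes called higher summed to 108537 CPM at E12.5 against 342125 CPM at P1, and the genes called lower went from 296432 to 84305 CPM. The call itself fixes the direction of both sums. The median log2 ratio of P1 over E12.5 was -0.26 over all measured genes, and ratios below are to be read against this shift. Without further scaling 35.3% of calls were higher. Relative to the median gene, 1027 genes were called higher and 1060 lower, and with TMM factors the numbers were 1043 and 1040. Both scalings centre the typical gene near 0, so near-equal numbers follow from them. Where the excess of genes called lower came from was not tested. At 4-fold or more, 262 genes were called higher and 479 lower.

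**Figure D1:**
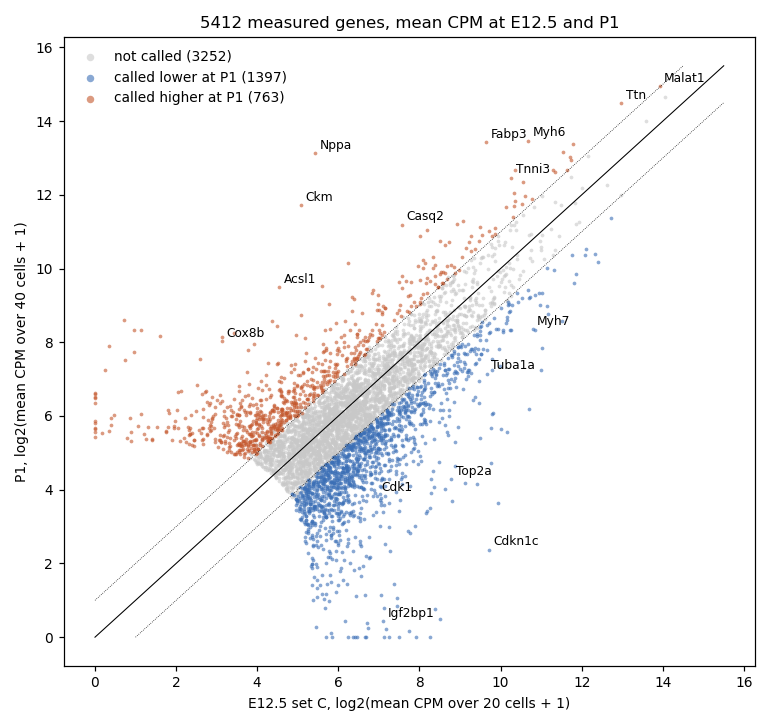
Mean CPM of the 5412 measured genes over the 20 E12.5 cells (horizontal axis) and over the 40 P1 cells (vertical axis), each as log2(mean CPM + 1). Points are genes, the solid line marks equal levels, the dotted lines mark 2-fold, and colours mark the 763 genes called higher and the 1397 called lower. Ckm and Nppa lie farthest above the line among the labelled genes, and Igf2bp1 and Cdkn1c far below it.

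For 4 measured genes (0.0739%) the lowest thinned P1 cell lay above the highest thinned E12.5 cell, and for 0 genes (0%) was it the reverse. These were Myh6, the fast α myosin heavy chain, Tnnt2, cardiac troponin T, Tnni3, the adult cardiac troponin I, and Cox8b, the muscle form of a subunit of cytochrome c oxidase. In thinned cells Myh6 was at most 5370 CPM at E12.5 and at least 5970 CPM at P1, and Tnni3 was at most 2370 and at least 2860 CPM. Myh6 and Tnnt2 are among the genes whose sum dropped a P1 cell, and with that cell kept no gene was separated in this way, while another thinning draw left 2. The gap was as narrow for Tnnt2 (4830 and 5200 CPM) and for Cox8b (60 and 70 CPM). In all counts of the 60 cells Cox8b was not separated, since the highest E12.5 cell had 82 CPM and the lowest P1 cell 68.7 CPM, whereas Myh6, Tnnt2 and Tnni3 were.

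Genes were called gained when 50% or more of the thinned P1 cells and 10% or less of the thinned E12.5 cells held 1 count or more. There were 28 such genes (0.517%), and 11 of them belong to a gene list used here. A thinned P1 cell held 12 to 26 of the 28 (median 19), and an E12.5 cell held 0 to 13 (median 1). The rule that chose the genes fixes the direction of this difference. The E12.5 cell that stood apart reached the lower end of the P1 range. In the 42 E9.5 cells, thinned in the same way, the count was 0 to 7 (median 3), and 17 of the 28 genes were found in 10% or less of them. The 8 N523 cells of E12.5 held 0 to 4 (median 2), and with N523 in place of set C 15 of the 28 genes were gained.

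Of the gained genes, 2 were in the list of creatine, adenylate and oxygen storage, 2 in the fatty acid list, 2 in the hormone list and 17 in no list. Ckm, the muscle creatine kinase of the cytosol, had a lowest, median and highest level of 0, 0 and 483 CPM at E12.5 and of 281, 3308 and 6742 CPM at P1. Its mean went from 32.6 to 3372 CPM, a log2 ratio of 6.69, and it was found in 2 of 20 thinned E12.5 cells (10%, exact 95% interval 1.24% to 31.7%) and in 37 of 37 P1 cells (90.5% to 100%). Ckmt2, its partner in the mitochondrion, was found in 0 of 20 and 27 of 37 thinned cells, with means of 0.964 and 321 CPM. Both parts of the creatine kinase shuttle were thus near 0 in most midgestation cells. Cox8b was found in 2 E12.5 cells and all 37 P1 cells, and its mean was 7.73 and 259 CPM. Myom2, which crosslinks myosin at the M-band, had no count at E12.5 and a mean of 88.8 CPM at P1, at least 243-fold higher against a floor of 3 counts over the group. Asb11, a muscle gene of the ubiquitin system, was found in 0 and 30 thinned cells, with means of 1.21 and 324 CPM. Without the E12.5 cell that stood apart, the E12.5 mean was 8.96 CPM for Ckm, 3.82 CPM for Cox8b and 0 for Asb11.

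The gained gene Scd4, a stearoyl-CoA desaturase of the heart, had 3 counts over all E12.5 cells and 1434 over the P1 cells, and its pooled ratio had a counting interval of 203 to 2883. Slc25a20, the carnitine carrier of the inner mitochondrial membrane, was found in 2 and 19 thinned cells, although the highest E12.5 cell had 385 CPM. Pxmp2, a peroxisomal membrane channel, was found in 2 and 21. Ephx2, which hydrolyses lipid epoxides (means 0.946 and 211 CPM), Agpat3, an acyltransferase of phospholipid synthesis (12.7 and 218 CPM), and Gstm1, a glutathione transferase (0.677 and 182 CPM), were gained as well. Without the E12.5 cell that stood apart, Scd4 had no count at E12.5, and the means of Ephx2 and Agpat3 were 0.506 and 6.32 CPM.

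The gained gene Ptgds, prostaglandin D synthase, was found in 1 of 20 and 35 of 37 thinned cells, with means of 2.04 and 288 CPM. It was the most widely found gained gene after Ckm and Cox8b. Corin, the protease that activates natriuretic peptides, was found in 1 and 21 thinned cells, Pde1c, a cyclic nucleotide phosphodiesterase, in 1 and 23, and Kcnk3, a background potassium channel, in 2 and 23. Dhrs7c, a reductase of the sarcoplasmic reticulum, had 2 counts over the E12.5 cells and 1020 over the P1 cells, with a counting interval of 175 to 5239 for the pooled ratio. Leaving out the E12.5 cell that stood apart, Ptgds had 1 count in the other 19 cells and Pde1c and Dhrs7c had none. Ctnna3, αT-catenin of the intercalated disc, was found in 2 and 21, and Cmya5, myospryn, in 2 and 21.

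Genes were called lost by the reverse rule, and there were 58 (1.07%), of which 25 belong to a list. A thinned E12.5 cell held 19 to 47 of them (median 34) and a P1 cell 0 to 13 (median 2), so the cells of both ages did not overlap in this number. The rule that chose the 58 genes fixes the direction of this difference. In the 8 N523 cells of E12.5 the number was 16 to 41 (median 22), but with N523 in place of set C only 5 of the 58 genes were lost. In 42 E9.5 cells the number was 10 to 48 (median 30.5), and 28 of the 58 genes were found in at least 50% of those cells and 0 of them in 10% or less. The genes lost by birth were thus already on in many cells of the youngest stage.

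In the cell division lists, 7 of the lost genes were in DNA replication, 7 in mitosis and cytokinesis and 3 among cyclins and their kinases. Ube2c, the ubiquitin-conjugating enzyme of mitotic exit, had a lowest, median and highest level of 0, 180 and 1641 CPM at E12.5, and 2 counts over all P1 cells, so that its pooled ratio of E12.5 over P1 had a counting interval of 356 to 10632. Cenpf, a kinetochore protein, had a mean of 238 CPM at E12.5 and no count at P1 (at least 525-fold lower). Uhrf1, which guides maintenance methylation of DNA, had 151 CPM and no count (at least 334-fold lower), and Racgap1, needed for cytokinesis, had 99.8 CPM and no count (at least 220-fold lower). Each of the 3 was found in 10 of 20 thinned E12.5 cells, so each was missing from as many E12.5 cells as held it. Top2a, which untangles chromosomes, was found in 10 of 20 and 2 of 37 thinned cells, with means of 439 and 18.4 CPM.

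Of the lost genes, 3 were in the oncofetal list and 2 in the list of imprinted growth genes, and 33 were in no list. Cdkn1c, an imprinted inhibitor of cyclin-dependent kinases, stood at 0, 778 and 2113 CPM (lowest, median and highest) at E12.5 and at 0, 0 and 136 CPM at P1. It was found in 90% of thinned cells at E12.5 (18 of 20) but in 5.41% at P1 (2 of 37), and its mean went from 839 to 4.15 CPM, a log2 ratio of -7.66. An inhibitor of division was thus among the lost genes beside the division genes. Hmga2, an embryonic chromatin protein, had a mean of 180 CPM and no count at P1 (at least 397-fold lower). Igf2bp1, an RNA-binding protein of embryonic growth, had 1142 counts at E12.5 and 2 at P1, with a counting interval of 127 to 3800 for the pooled ratio of E12.5 over P1. Id3, an inhibitor of basic helix-loop-helix factors, had 815 and 2 counts (90.5 to 2713). Ndn, the imprinted gene for necdin, had 81.7 CPM and no count (at least 180-fold lower). Akap5, an anchor for protein kinase A, had 303 CPM and no count (at least 669-fold lower), and Fabp5, a fatty acid binding protein of other tissues, had 138 CPM and no count (at least 304-fold lower), although the P1 cell that was left out held it.

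**Figure D2:**
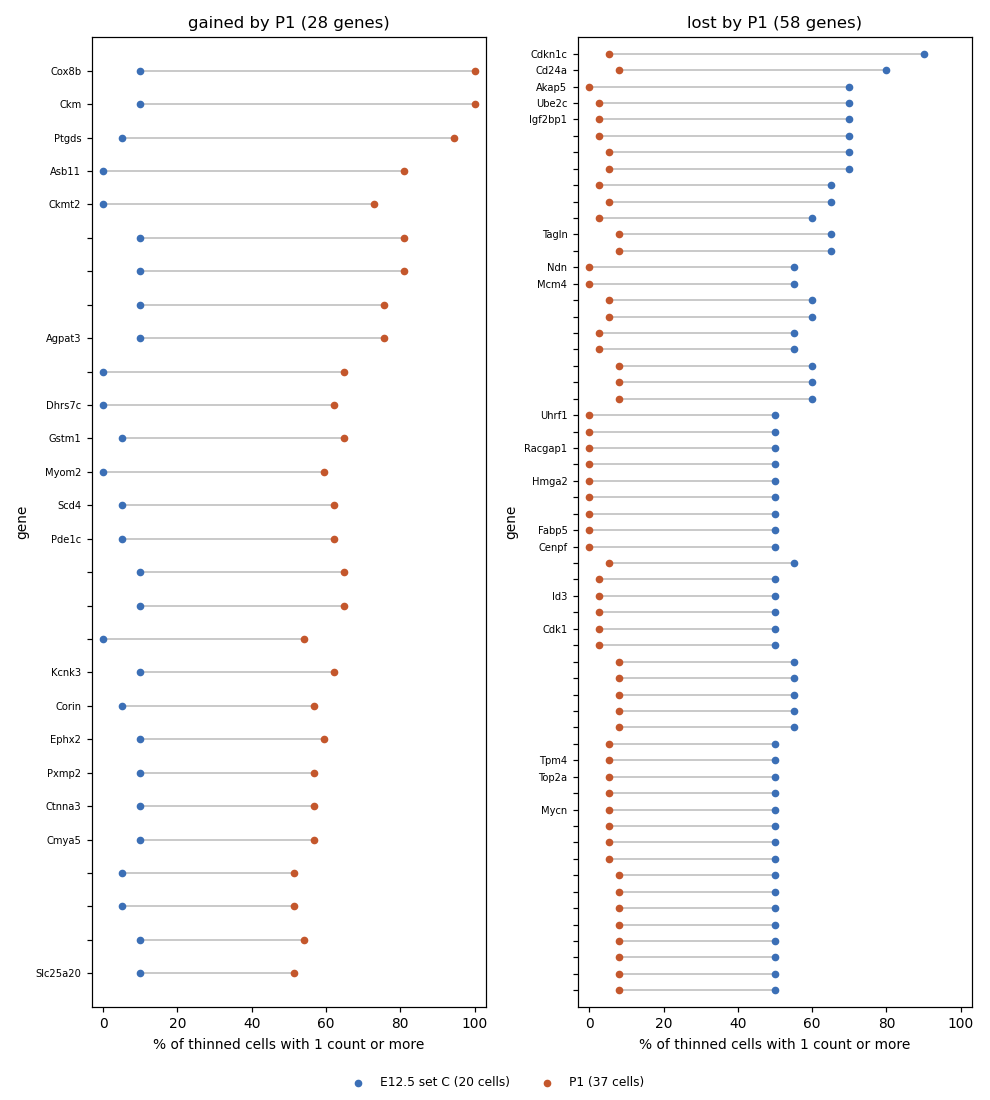
Share of thinned cells with 1 count or more (horizontal axis, %) for the 28 gained genes (left) and the 58 lost genes (right), with 1 row per gene and the genes described in the text named. Blue points give the 20 E12.5 cells, orange points the 37 P1 cells, and a grey line joins them. Ckm and Cox8b run from 10% to 100%, and Cdkn1c runs from 90% to 5.41%.

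Sarcomere genes were among the most abundant genes called higher. Of 16 measured thick filament genes, 9 were called higher (56.2%, against 14.1% of all measured genes) and 3 lower (18.8%, against 25.8%; median log2 ratio 1.17, against -0.26 for all measured genes), and their summed level went from 27846 ± 7451 CPM (SD over 20 cells) to 55657 ± 13786 CPM (SD over 40 cells). The sum rested on its leading genes, since its log2 ratio was -0.18 without the 3 leading genes. In the deposited TPM, which corrects for length, that log2 ratio was 0.089, and the cause of this shift was not tested. Ttn, the giant spring of the sarcomere, was 962 to 17641 CPM at E12.5 (median 8548) and 1879 to 51030 CPM at P1 (median 22512), a log2 ratio of 1.51. The ranges of the ages overlapped. Mybpc3, cardiac myosin binding protein C, had means of 613 and 1199 CPM and was not called.

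Fewer thin filament genes were called. Among 14 measured members 4 were called higher (28.6%, against 14.1% of all measured genes) and 2 lower (14.3%, against 25.8%), with a median log2 ratio of 0.39. Tnnt2 went from a mean of 2976 ± 972 CPM to 9106 ± 2226 CPM (SD over 20 and 40 cells), Tnnc1, troponin C, from 2585 to 6265 CPM, and Tnni3 from 1220 to 5642 CPM. The 3 subunits of the adult troponin complex were thus all called higher. Actc1, cardiac α-actin, had means of 17127 and 25850 CPM and Tpm1, α-tropomyosin, had 4534 and 8569 CPM, and neither was called. The 2 members called lower were Tnnt1, slow skeletal troponin T (143 and 38.9 CPM), and Acta1, skeletal α-actin (467.5 and 129.6 CPM). Tpm4, a nonmuscle tropomyosin of the cytoskeleton list, was called lower too (69.8 and 28.2 CPM, and not with the left-out P1 cell kept). Reads of the actin genes Actc1, Acta1 and Acta2, and of Myh6 and Myh7, can be shared between near copies, and how the authors counted such reads is not stated.

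Z-disc genes included 10 called higher (40%, against 14.1%) and 2 called lower (8%, against 25.8%) of 25 measured, with a median log2 ratio of 0.74. Actn2, α-actinin, the main crosslinker of the Z-disc, went from a mean of 611 to 1884 CPM. Myoz2, a calcineurin-binding protein of the Z-disc, had a lowest, median and highest level of 0, 105 and 630 CPM at E12.5 and of 33.8, 514 and 1288 CPM at P1, a log2 ratio of 2.07. Tcap, telethonin, was found in 8 of 20 and 28 of 37 thinned cells. The stretch-response protein Csrp3 (1658 and 1923 CPM) and the chaperone Cryab (1057 and 1004 CPM) were not called.

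The promoters of Ttn and Myoz2 are shown because they are among the 10 of 837 promoters of genes called higher (1.2%) that hold letters of the MEF2 motif, the binding motif of a family of muscle transcription factors, on either strand. The share was 0.536% among promoters of all measured genes and 0.557% among all 32851 promoters, and 11 motifs were searched. Promoters are RefSeq sequences of GRCm38.p6, 250 bases before to 50 bases after a start, and were matched by symbol for 618 of the 763 genes called higher (81.0%) and 4366 of all 5412 (80.7%). Capitals mark the MEF2 letters, which can overlap letters of a TATA box, and a match is a description, not a bound site. Ttn is at chr2:76982498-76982797 and Myoz2 at chr3:123034938-123035237, both on the minus strand and printed 5′ to 3′ in the direction of the gene.
Ttn: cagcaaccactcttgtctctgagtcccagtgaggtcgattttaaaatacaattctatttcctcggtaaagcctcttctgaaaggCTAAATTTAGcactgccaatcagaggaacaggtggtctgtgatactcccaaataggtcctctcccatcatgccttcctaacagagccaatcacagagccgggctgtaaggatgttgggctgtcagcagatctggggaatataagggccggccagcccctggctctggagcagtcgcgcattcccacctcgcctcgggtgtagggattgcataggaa
Myoz2: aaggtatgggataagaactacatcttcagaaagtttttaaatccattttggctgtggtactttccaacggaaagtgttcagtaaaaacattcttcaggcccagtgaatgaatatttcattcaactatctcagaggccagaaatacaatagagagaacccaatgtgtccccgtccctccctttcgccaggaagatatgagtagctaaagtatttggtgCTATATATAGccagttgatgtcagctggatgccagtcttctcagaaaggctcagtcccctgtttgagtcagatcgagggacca

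Isoforms of the myosin heavy and light chains differed between the ages and also differ between heart chambers. Myh6, the α heavy chain, stood at 237, 725 and 5535 CPM (lowest, median and highest) at E12.5 and at 5966, 10804 and 21383 CPM at P1. Its mean was 1636 ± 1822 and 11285 ± 3651 CPM (SD over 20 and 40 cells), a log2 ratio of 2.79. Myh7, the slow β heavy chain, went the other way, from a mean of 1765 to 327 CPM and a median of 1790 to 221 CPM. Per length, Myh6 and Myh7 were at mean TPM (abundance corrected for transcript length) of 511 and 537 at E12.5 and of 3094 and 90.5 at P1. The share of Myh6 in the CPM of the pair in a cell was 6.88% to 99.5% at E12.5 (median 23.5%) and 92.2% to 100% at P1 (median 97.8%). Cells at midgestation therefore lay mostly towards either end of the range, and cells at birth lay at one end.

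The light chains carried a chamber pattern at both ages. Myl4 and Myl7 are the atrial essential and regulatory light chains, and Myl3 and Myl2 are their ventricular counterparts, and all are first expressed more widely in the embryo. Myl3 (means 3365 and 8338 CPM) and Myl2 (2520 and 6532 CPM) were called higher, and Myl4 (2258 and 503 CPM) and Myl7 (6795 and 2667 CPM) were called lower. The median of Myl4 at P1 was 2.11 CPM while its highest cell had 4389 CPM, so most cells had nearly none. Myl4 exceeded Myl3 and Myl7 exceeded Myl2 in 8 of 20 E12.5 cells and in 5 of 40 P1 cells. In 7 of those 8 E12.5 cells Myh6 also exceeded Myh7, which held in no other cell of that age, whereas at P1 it held in all 40. The labels do not name the chamber, and the 2 ages may hold different shares of atrial cells. The sum of 8 ventricular markers, which include Pln and Gja1 described below, had means of 10668 and 27123 CPM. The sum of 10 atrial markers had medians of 6036 and 444 CPM but means of 9719 and 12775 CPM. In that sum 28 of 40 P1 cells lay below the lowest E12.5 cell. How far the share of atrial cells moved the means of the light chains and other chamber genes was not tested.

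The natriuretic peptide Nppa, a hormone of atrial and embryonic ventricular muscle that lowers blood pressure, had the largest mean difference of the hormone genes. It ranged from 0 to 364 CPM at E12.5 (median 0) and from 0 to 120233 CPM at P1 (median 22.3), with means of 42.2 and 8946 CPM. No E12.5 cell and 10 of 40 P1 cells had 1000 CPM or more, and 5 of those 10 had the atrial pattern of light chains. Nppa was 8000 CPM on average in the 8 N523 cells of E12.5, so the low level of set C was not shared by these E12.5 cells. The mean at P1 rested on few cells. Sln, sarcolipin, an atrial inhibitor of the calcium pump, reached 1000 CPM in 1 E12.5 and 6 P1 cells, and its mean was 617 CPM in N523 cells and 598 CPM at P1. Nppb, the related B-type peptide, was not called (97.2 and 179 CPM). In the list of 25 hormone genes, 5 of 12 measured members were called higher (41.7%, against 14.1% of all measured genes) and 2 lower (16.7%, against 25.8%).

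Calcium handling genes of the sarcoplasmic reticulum were called higher in 11 of 16 measured cases (68.8%, against 14.1% of all measured genes) and lower in 1, with a median log2 ratio of 1.71. Their sum was 1866 to 9001 CPM at E12.5 (median 4595) and 11423 to 28281 CPM at P1 (median 18440). All 40 P1 cells lay above the highest E12.5 cell. Ryr2, the calcium release channel, went from a mean of 365 to 1710 CPM (log2 ratio 2.23), Atp2a2, the calcium pump SERCA2, from 1288 to 4251 CPM (1.72), and Pln, phospholamban, which restrains that pump, from 1308 to 6552 CPM (2.32). Release, uptake and the control of uptake were thus all called higher. Casq2, cardiac calsequestrin, which buffers calcium inside the store, was found in 6 of 20 and 37 of 37 thinned cells. Its lowest, median and highest levels were 0, 0 and 1468 CPM at E12.5 against 343, 2151 and 5893 CPM at P1, a log2 ratio of 3.64, and its mean at E12.5 was 188 CPM, or 120 CPM without the cell that stood apart. Casq1, the skeletal form, had means of 164 and 86.7 CPM, and Trdn, triadin, which ties calsequestrin to the release channel, had 366 and 610 CPM, and neither was called. Jph2, which joins the store to the cell membrane, was low at both ages (28.4 and 33.1 CPM).

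Membrane genes showed a weaker pattern. Of 32 channels and exchangers listed, 15 were measured. Of these, 7 were called higher (46.7%, against 14.1%) and 1 lower, and the sums of both ages overlapped (1146 to 7630 and 1724 to 7520 CPM). Cacna1c, the L-type calcium channel, went from a mean of 43.3 to 120 CPM, and Kcnj2, an inward rectifier potassium channel, from 20.2 to 73 CPM, the former found in 11 and 29 and the latter in 1 and 10 thinned cells. Slc8a1, the sodium-calcium exchanger, was not called (1239 and 1545 CPM). At the intercalated disc, the junction between cardiomyocytes, 7 of 16 measured genes were called higher (43.8%, against 14.1%) and 0 lower. Gja1, connexin 43, the main gap junction protein of the working ventricle, was 0, 973 and 8366 CPM (lowest, median and highest) at E12.5 and 590, 4701 and 13129 CPM at P1. Dsp, desmoplakin, had means of 332 and 770 CPM. N-cadherin, Cdh2, was not called (225 and 157 CPM).

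Fatty acid genes had a larger share called higher than any other gene program described here, cell type marker lists aside. Of the 8 measured cardiomyocyte markers, 7 were called higher (87.5%). Of 27 measured genes of uptake and oxidation, 23 (85.2%, against 14.1%) were called higher and 0 lower, with a median log2 ratio of 1.92. Their sum was 3429, 5540 and 11288 CPM (lowest, median and highest) at E12.5 and 13801, 33028 and 48956 CPM at P1. No P1 cell overlapped with the E12.5 cells in this sum. The mean went from 6077 ± 1991 CPM (SD over 20 cells) to 32843 ± 8406 CPM (SD over 40 cells).

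For uptake, the scavenger receptor Cd36 went from a mean of 290 to 2123 CPM and the lipoprotein lipase Lpl from 270 to 1208 CPM. Fabp3, the heart fatty acid binding protein, stood at 169, 581 and 3198 CPM (lowest, median and highest) at E12.5 and at 2102, 11157 and 22208 CPM at P1, a log2 ratio of 3.78. Fabp3 alone made up a large part of the list sum at P1. Acsl1, which activates fatty acids to acyl-CoA, was found in 3 of 20 and 37 of 37 thinned cells, with means of 22.3 CPM (14.2 CPM without the E12.5 cell that stood apart) and 720 CPM. In the mitochondrion, the dehydrogenases Acadvl (83.2 and 572 CPM), Acadl (393 and 1580 CPM) and Acadm (331 and 1089 CPM) for very long, long and medium chains were called higher, as were both subunits of the trifunctional protein, Hadha (188 and 710 CPM) and Hadhb (249 and 1076 CPM). Decr1, needed for unsaturated chains, went from 53.4 to 521 CPM, and Acaa2, the last enzyme of a round, from 256 to 1899 CPM. Entry by carnitine was less clear. Cpt2, the inner carnitine transferase, was called higher (61.9 and 220 CPM), Cpt1a, the outer one, was not (32.6 and 65.6 CPM), and Slc22a5, the carnitine importer, was not (31.6 and 30.8 CPM). Cpt1b, the muscle form of the outer transferase, the short-chain dehydrogenase Acads and the fatty acid transporter Slc27a1 were not among the measured genes.

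**Figure D3:**
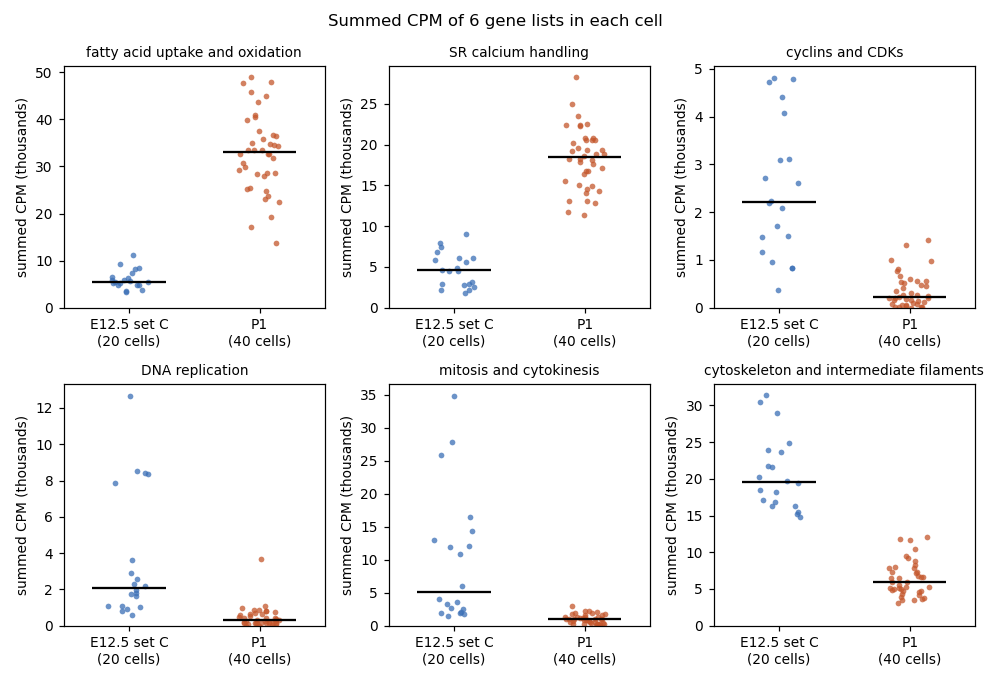
Summed CPM (vertical axes) of 6 gene lists in each of the 20 E12.5 cells (blue) and 40 P1 cells (orange), with a black bar at the median. All P1 cells lie above the E12.5 cells for fatty acid and calcium handling genes and below them for the cytoskeleton, while the cell cycle lists spread widely at E12.5 and lie low at P1.

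In the citrate cycle list 15 of 28 measured genes were called higher (53.6%, against 14.1% of all measured genes), 1 was called lower and 12 were not called (median log2 ratio 1.06). Cs, citrate synthase, went from a mean of 378 to 964 CPM, Mdh1, cytosolic malate dehydrogenase, from 3414 to 7865 CPM, and Sdha, the catalytic subunit of complex II, from 322 to 1027 CPM. The kinases that shut pyruvate dehydrogenase differed among themselves. Pdk1 was called lower (177 and 44.2 CPM), whereas Pdk2 (44.5 and 171 CPM) and Pdk4 (62.1 and 228 CPM) were called higher, although Pdk2 had 207 CPM in N523 cells.

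Complex I, the entry of the respiratory chain, had 13 of 36 measured genes called higher, complexes III and IV 8 of 24, and the ATP synthase list 7 of 22 (36.1%, 33.3% and 31.8%, against 14.1% of all measured genes), with 0 called lower in each and 23, 16 and 15 genes not called. Their median log2 ratios were 0.93, 0.85 and 0.80, so a typical gene lay just under the 2-fold limit. The sums went from 14372 to 28264 CPM, from 17519 to 33073 CPM and from 26679 to 55057 CPM. Of the muscle subunits of cytochrome c oxidase, Cox6a2 went from a mean of 424 to 1679 CPM while Cox6a1 had means of 1730 and 1951 CPM. Slc25a4, the muscle exchanger of ATP and ADP, went from 3519 to 10576 CPM and Atp5b, the catalytic β subunit of ATP synthase, went from 3165 to 6541 CPM.

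In the list of creatine, adenylate and oxygen storage 4 of 11 measured genes were called higher (36.4%, against 14.1%) and 0 lower, and the sum went from 932 to 6431 CPM, with 39 of 40 P1 cells above the highest E12.5 cell. The sum rested on its leading genes, since its log2 ratio was 2.79 with all members and 0.67 without the 3 leading genes. Besides Ckm and Ckmt2 these were Mb, myoglobin, with 0, 0.925 and 416 CPM (lowest, median and highest) at E12.5 and 127, 1088 and 2454 CPM at P1, and Ak1, the muscle adenylate kinase (means 270 and 1037 CPM). The brain-type creatine kinase Ckb was not called (82.6 and 112 CPM).

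Glycolysis genes were called in both directions. Of 22 measured genes 4 were called higher (18.2%, against 14.1% of all measured genes) and 3 lower (13.6%, against 25.8%), the median log2 ratio was -0.15, and the sum was 15189 CPM at E12.5 against 16877 CPM at P1. The embryonic glucose transporter Slc2a1 went from a mean of 227 to 33.6 CPM, found in 17 of 20 and 5 of 37 thinned cells, Pgam1 from 357 to 56.4 CPM and Ldha, which makes lactate, from 2548 to 1001 CPM. Eno3, muscle enolase, was called higher (534 and 2479 CPM), and so was Ldhb, the heart lactate dehydrogenase subunit (1277 and 3308 CPM). Eno1, the ubiquitous enolase, was listed near 0 at both ages (0.395 and 0.211 CPM). How reads shared between gene copies were counted is not stated, so this value need not mean that Eno1 was absent. Gapdh (1354 and 1220 CPM) and Aldoa (3632 and 3485 CPM) were not called.

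Of 24 metabolic regulators in the file, 12 were measured. Of these, 3 were called higher (25%, against 14.1% of all measured genes) and 2 lower (16.7%, against 25.8%). Ppara, a nuclear receptor that is known to drive fatty acid genes, was found in 1 of 20 and 12 of 37 thinned cells, with means of 0.839 CPM (0 without the E12.5 cell that stood apart) and 39.2 CPM, and Ppargc1b, a coactivator of mitochondrial genes, in 5 and 23 (11.8 and 71.1 CPM). Ppargc1a, the related coactivator, was not called (226 and 161 CPM). Among 20 antioxidant genes 5 were called higher (25%, against 14.1%) and 3 lower (15%, against 25.8%), and the sums were 9348 and 9459 CPM. Mt1, a metallothionein, went from 60.3 to 368 CPM and the mitochondrial peroxiredoxins Prdx3 (221 and 501 CPM) and Prdx5 (61.3 and 206 CPM) were called higher, while Gsr, glutathione reductase, was called lower (86.8 and 20.4 CPM).

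Pairs of related genes were set side by side as the share of 1 gene in the pair, from the mean TPM of each age unless a cell is named. Per length, the share of Tnni3 in the mean TPM of Tnni1 and Tnni3, the fetal and the adult troponin I, was 28.6% at E12.5 and 62.1% at P1. Its share of the pair's CPM was 6.83% to 42.95% over E12.5 cells and 39.2% to 72.2% over P1 cells. Tnni1 itself was not called (4109 and 4651 CPM), so the fetal form was still present at P1. In contrast, Ckm made up 28.5% of the pair with Ckb in mean TPM at E12.5 (8.79% without the cell that stood apart) and 97.0% at P1, and Ldhb made up 42.2% and 82.9% of the pair with Ldha. Casq2 made up 46.3% and 95.3% of the pair with Casq1, although its median share of the pair's CPM was 2.80% over the 15 E12.5 cells with counts of either gene, and 100% over the 40 P1 cells. It stood above Casq1 in 7 of 20 cells at E12.5 and in 39 of 40 at P1. In mean TPM, Myl3 made up 58.5% and 94.3% of the pair with Myl4. Cox8b went from 1.72% (0.799% without that cell) to 43.4% of the pair with Cox8a, and Slc25a4 from 54.1% to 67.6% of the pair with Slc25a5. Other pairs went up in mean TPM. Cox6a2 went from 16.8% to 41.1% of the pair with Cox6a1, Pfkm from 21.8% to 53.2% of the pair with Pfkp, Pygm from 63.1% to 83.9% of the pair with Pygb, and Pgam2 from 83.1% to 98.3% of the pair with Pgam1. Slc2a4 went from 1.21% to 31.6% of the pair with Slc2a1, but it did not pass the filter (mean TPM 2.06 and 10.1), 14 of 40 P1 cells held either gene, and Slc2a1 itself had a mean TPM of 168 and 21.8. Cox7a1 and Hk2 did not gain share. Cox7a1 made up 30.7% and 27.8% of the pair with Cox7a2, and Hk2 84.4% and 80.9% of the pair with Hk1.

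**Figure D4:**
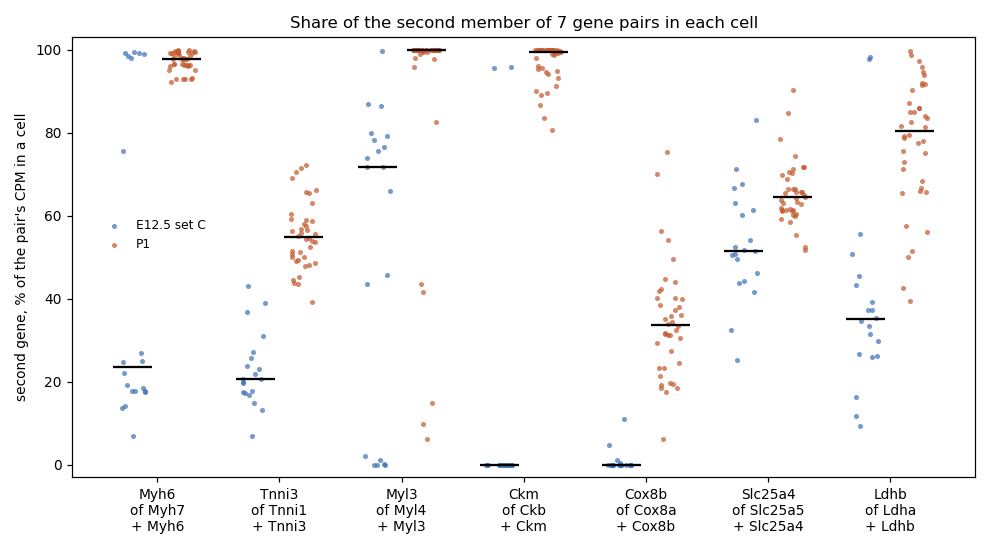
Share of the second gene in the summed CPM of 7 gene pairs (vertical axis, %) in each E12.5 cell (blue) and P1 cell (orange) that holds counts of the pair, with a black bar at the median. Tnni3 lies at a median of 20.7% at E12.5 and 54.9% at P1, and Ckm at 0% and 99.5%.

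Most cell cycle genes that passed the filter were called lower. The filter kept 11 of 22 cyclins and cyclin-dependent kinases in the file, 24 of 43 replication genes and 22 of 57 mitosis genes, and a gene that is low at P1 passes it mainly through its E12.5 level, so these counts are a description. All 11 measured cyclins, cyclin-dependent kinases and their partners were called lower (median log2 ratio -4.67), as were 23 of 24 DNA replication genes (-2.75) and 21 of 22 genes of mitosis and cytokinesis (-4.91), against 25.8% of all measured genes, and 0 were called higher. The replication sum was 575, 2075 and 12673 CPM (lowest, median and highest) at E12.5 and 0, 295 and 3674 CPM at P1, and the mitosis sum was 1514, 5039 and 34884 CPM and 90.8, 1017 and 2974 CPM. Of 40 P1 cells, 28 lay below the lowest E12.5 cell in replication and 30 in mitosis. Gene lists share members, so their sums are not independent results. Tubb5, Tuba1b and Stmn1 are in both the mitosis and the cytoskeleton list, and Ccnb1 is in the cyclin and mitosis lists. Uhrf1 and Dnmt1 are in the replication and chromatin lists. The E12.5 cells differed widely among themselves. A single P1 cell held 3674 CPM of replication genes, and the next had 1058 CPM.

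Genes of all phases of the cycle were among those called lower. Ccnb1, the mitotic cyclin B1, had 1740 counts over the E12.5 cells and 1 over the P1 cells, with a counting interval of 251 to 55349 for the pooled ratio of E12.5 over P1. Cdk1, its kinase, was found in 10 of 20 and 1 of 37 thinned cells, with means of 123 and 13.3 CPM. Mcm4, part of the replicative helicase, had 941 counts and 1 count (136 to 29947). The D-type cyclins of the G1 phase differed among themselves. Ccnd1 was found in 7 of 20 and 1 of 37 thinned cells, with means of 77.5 and 3.05 CPM. Ccnd2 was found in 17 of 20 and 28 of 37 thinned cells, with means of 582 and 145 CPM, and Cdk4, a kinase of these cyclins, in 19 of 20 and 19 of 37 (334 and 118 CPM). Ccnd2 and Cdk4 were thus still found in many P1 cells, and Ccnd1 was not. Mki67, a common marker of cycling cells, was found in 7 of 20 and 2 of 37 thinned cells (164 and 1.71 CPM).

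Of 12 measured inhibitors of the cycle 7 were called lower (58.3%, against 25.8%) and 2 higher (16.7%, against 14.1%). Cdkn1b, p27, went from a mean of 152 to 55.0 CPM, Btg2 from 889 to 66.0 CPM and Trp53, p53, from 247 to 32.1 CPM. Cdkn1a, p21, was called higher, from 1.65 to 40.1 CPM, and was found in 2 of 20 and 10 of 37 thinned cells. Ccng1, cyclin G1, a target of p53, was called higher as well (74.8 and 238 CPM), but had 334 CPM in N523 cells.

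The promoters of Mycn and Cdk1 are shown because they hold letters of the E2F motif, the motif of the factors that turn on S phase genes, and are 2 of 8 such promoters among 53 of lost genes (15.1%). The letters searched on both strands were TTTCCCGC, TTTGGCGC, TTTCGCGC and TTTGCCGC, which can overlap each other. The share was 3.87% among promoters of measured genes and 2.26% among all promoters. Promoters were matched for 47 of the 58 lost genes (81.0%). They were matched for 78.7% of the genes called lower and 60.7% of the gained genes. These 2 sets had the lowest matches, and no share is read for either. The letters TTTGAA of the CHR motif, found in promoters of mitotic genes, were in 28.3% of the lost genes' promoters, 11.7% of those of measured genes and 17.9% of all. Capitals mark the E2F letters in the sequences from GRCm38.p6. Mycn is at chr12:12941787-12942086 and Cdk1 at chr10:69352863-69353162, both on the minus strand and printed 5′ to 3′ in the direction of the gene.
Mycn: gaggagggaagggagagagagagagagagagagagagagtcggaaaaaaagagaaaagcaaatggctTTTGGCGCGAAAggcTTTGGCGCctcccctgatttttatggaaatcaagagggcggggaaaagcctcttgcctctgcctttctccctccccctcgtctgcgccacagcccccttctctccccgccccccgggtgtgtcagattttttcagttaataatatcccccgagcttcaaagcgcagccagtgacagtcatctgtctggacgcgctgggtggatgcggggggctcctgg
Cdk1: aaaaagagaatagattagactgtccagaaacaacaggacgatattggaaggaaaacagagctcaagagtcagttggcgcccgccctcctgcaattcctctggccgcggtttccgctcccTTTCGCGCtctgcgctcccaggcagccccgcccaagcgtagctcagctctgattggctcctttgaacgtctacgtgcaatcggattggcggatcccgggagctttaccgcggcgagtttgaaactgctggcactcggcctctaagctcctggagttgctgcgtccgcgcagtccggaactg

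Mycn, the MYC family member of embryonic growth, was found in 10 of 20 and 2 of 37 thinned cells, with means of 132 and 1.20 CPM. The E2F letters of Mycn lie in a cluster of 3 matches of which 2 overlap, and Cdk1 holds 1 match.

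Chromatin genes were called lower in 15 of 23 measured cases (65.2%, against 25.8%) and higher in 0 (median log2 ratio -1.65), and 38 of 40 P1 cells had a sum below the lowest E12.5 cell. The heterochromatin proteins Cbx3 (means 4344 and 1308 CPM) and Cbx5 (2296 and 434 CPM) and the nucleosome-binding proteins Hmgn1 (419 and 71.1 CPM) and Hmgn2 (734 and 202 CPM) were among the members called lower, as was the chromatin protein Hmgb1 (1145 and 413 CPM). Lbr, which ties heterochromatin to the nuclear envelope, went from 878 to 185 CPM. Ezh2, the methyltransferase of the Polycomb complex, was called lower (131 and 47 CPM), whereas its partners Eed (29.6 and 19.4 CPM) and Suz12 (117 and 61.2 CPM) were not. Of the enzymes that oxidise methylated DNA none was called (Tet1 90.3 and 146 CPM, Tet2 250 and 130 CPM, Tet3 53.6 and 47.8 CPM).

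Most measured imprinted growth genes were called lower, since 10 of 14 measured members were in this class (71.4%, against 25.8%) and 0 were called higher (median log2 ratio -1.77), and 38 of 40 P1 cells had a sum below the lowest E12.5 cell. Of the 22 genes listed, 14 passed the filter, and those low at P1 did so mainly through their E12.5 level. Igf2r, the receptor that clears the growth factor Igf2, was 1467, 3356 and 8295 CPM (lowest, median and highest) at E12.5 and 166, 877 and 2172 CPM at P1. H19, a noncoding RNA of the Igf2 locus, went from a mean of 718 to 41.7 CPM, and Igf2 from 552 to 204 CPM. Genes with growth-promoting and growth-limiting roles were both called lower. Peg3 (172 and 28.1 CPM) and Meg3 (82.5 and 2.54 CPM) were called lower, and Grb10 (881 and 546 CPM), Mest (302 and 321 CPM), Gnas (284 and 363 CPM) and Plagl1 (327 and 298 CPM) were not called. In the list of oncofetal RNA-binding and growth genes 5 of 6 measured members were called lower (83.3%, against 25.8%), but only these 6 of 20 passed the filter, which members low at P1 pass mainly through their E12.5 level. Beside Igf2bp1, its relatives Igf2bp2 (68.1 and 30.4 CPM) and Igf2bp3 (113 and 50.6 CPM) were called lower by smaller factors, and Igf2bp3 had 25.4 CPM in N523 cells.

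Growth factor signalling showed 13 of 18 measured genes called lower (72.2%, against 25.8% of all measured genes) and 2 higher (11.1%, against 14.1%), with a median log2 ratio of -1.79. Of the 44 genes listed, 18 passed the filter, and those low at P1 did so mainly through their E12.5 level. The receptors Igf1r (means 238 and 72.2 CPM) and Erbb2 and Erbb4, the pair that receives neuregulin (57.1 and 15.8 CPM, 37.7 and 16.0 CPM), were called lower. Jag1, a Notch ligand, went from 326 to 16.0 CPM, Igfbp5, which binds insulin-like growth factors, from 974 to 11.5 CPM, and Id2, a target of BMP signals, from 1141 to 46.2 CPM. Spry2, a feedback inhibitor of receptor signals, was called lower too (724 and 316 CPM). The exceptions were Fgf1, called higher from 3.35 to 101 CPM and found in 1 of 20 and 16 of 37 thinned cells (the E12.5 cell being the one that stood apart), and Vegfa (18.1 and 42.2 CPM).

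Of 23 measured cardiac transcription factors, 2 were called higher (8.70%, against 14.1% of all measured genes), 5 lower (21.7%, against 25.8%) and 16 not called, with a median log2 ratio of -0.47, so the list lay near the background. Gata4 (means 91.1 and 77.7 CPM), Gata6 (231 and 230 CPM), Tbx20 (570 and 419 CPM), Mef2c (161 and 107 CPM) and Myocd (287 and 270 CPM), factors that specify and maintain heart muscle, were at similar means. Mef2a was called higher (59.8 and 141 CPM). Lower calls included Nr2f2 (312 and 18.4 CPM), a factor of atrial identity, beside the lower number of cells with atrial light chains at P1. Ankrd1, a stress-responsive cofactor of the sarcomere and nucleus, was 0, 1983 and 10881 CPM at E12.5 (lowest, median and highest) and 0, 36.5 and 4549 CPM at P1.

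Cytoskeletal genes separated the ages as cleanly as fatty acid genes did, in the other direction. Of 29 measured genes 23 (79.3%, against 25.8%) were called lower and 2 higher (median log2 ratio -2.12). The sum was 14825 to 31467 CPM at E12.5 (median 19558) and 3056 to 12072 CPM at P1 (median 5969), and all 40 P1 cells lay below the lowest E12.5 cell. Actb, nonmuscle actin, went from a mean of 5388 to 1157 CPM, Tubb5, a β-tubulin, from 2085 to 231 CPM, Tuba1a, an α-tubulin, from 808 to 140 CPM, and Vim, vimentin, from 356 to 26.0 CPM. Marcks, which binds actin at the membrane, had a median of 825 and a highest level of 2137 CPM at E12.5 but of 0 and 311 CPM at P1, and was found in 20 of 20 and 9 of 37 thinned cells. Filaments of actin, tubulin and vimentin were all part of this. The muscle intermediate filament Des, desmin, was called higher instead (123 and 261 CPM), as was Tuba4a, which had no count at E12.5 and 90.8 CPM at P1 (at least 249-fold higher).

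The smooth muscle type genes Tagln (means 682 and 16.8 CPM) and Cnn1 (407 and 46.7 CPM) were called lower, and Acta2 was not (2026 and 1445 CPM). Of 21 measured matrix and surface genes 5 were called higher (23.8%, against 14.1% of all measured genes) and 7 lower (33.3%, against 25.8%). Col4a2, a chain of basement membrane collagen (30.2 and 80.4 CPM), Lama2 (47.4 and 103 CPM) and Lamb2 (15.6 and 59.3 CPM), which are laminin chains, and the integrin Itga5 (14.3 and 40 CPM) were among those higher. Other genes of this kind were not called, namely Col4a1 (83.8 and 108 CPM), Lama4 (79.4 and 95.4 CPM), Lamb1 (98.2 and 71.9 CPM), Lamc1 (66.7 and 123 CPM) and Hspg2 (32.9 and 51.9 CPM), and Nid2 was called lower (72.2 and 24.5 CPM). Vcan, versican of the embryonic cardiac jelly (468 and 38.4 CPM), Fn1, fibronectin (42.9 and 4.64 CPM), and Cd24a, a surface protein of immature cells (289 and 9.81 CPM), were among those lower.

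Of 19 measured splicing regulators 2 were called higher (10.5%, against 14.1% of all measured genes) and 7 lower (36.8%, against 25.8%). Rbm20, which sets the splicing of Ttn, went from a mean of 40.7 to 107 CPM and Mbnl1, a factor of postnatal splicing, from 124 to 470 CPM, whereas the general factors Srsf1 (424 and 63.0 CPM) and Hnrnpa2b1 (1997 and 518 CPM) were called lower. Of 63 measured ribosome and translation genes 1 was called higher, 11 lower and 51 were not called (median log2 ratio -0.42), with 17.5% called lower against 25.8% of all measured genes. Reads of ribosomal protein genes can also come from near-copy pseudogenes. The nucleolar proteins Npm1 (1636 and 689 CPM) and Ncl (724 and 292 CPM) were called lower.

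Stress response genes and nuclear RNAs are known to vary with the handling and state of isolated cells. Of 15 measured immediate early and heat shock genes 0 were called higher (against 14.1% of all measured genes) and 7 lower (46.7%, against 25.8%), among them Egr1 (means 372 and 60.7 CPM) and Atf3 (182 and 27.5 CPM), while Fos (104 and 92.1 CPM) was not called. Of 9 measured nuclear noncoding RNAs 3 were called higher (33.3%, against 14.1%) and 5 lower (55.6%, against 25.8%). Malat1, called higher, ranged from 3418 to 37159 CPM at E12.5 (median 10862) and from 11214 to 69707 CPM at P1 (median 32899). The ribosomal RNA precursor Rn45s had means of 12302 and 16283 CPM. The part of digestion and cell handling in any of these differences was not tested. Of 2 measured genes of antigen presentation, Cd59a, which blocks complement, was called higher (33 and 109 CPM) and B2m was not (45.9 and 38.3 CPM).

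**Figure D5:**
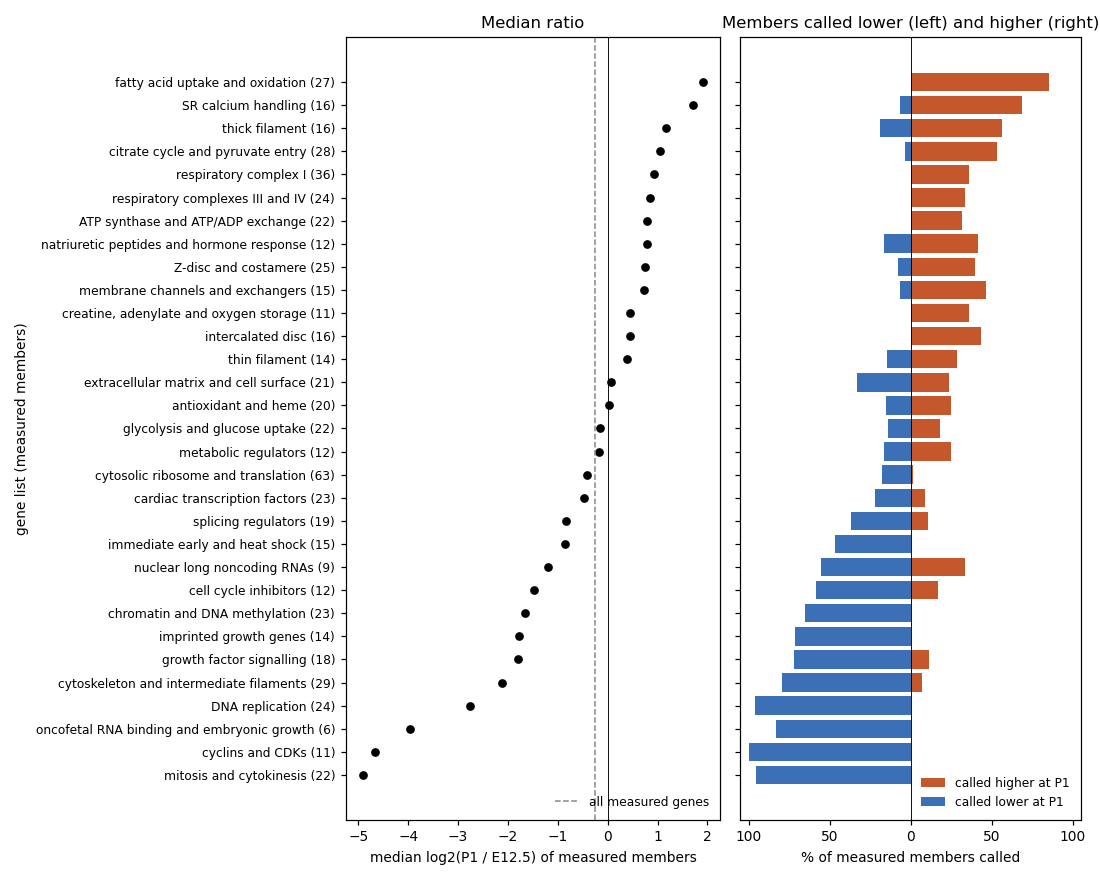
Gene lists with 5 or more measured members, cell type marker lists left out, by the median log2 ratio of P1 over E12.5 (left, with a dashed line at -0.26 for all measured genes) and by the share of measured members called higher (orange) or lower (blue) at P1 (right, %). Fatty acid genes reach 85.2% called higher, and cyclins and CDKs 100% called lower.

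The lists account for a minor part of the calls, since 609 of the 763 genes called higher and 1222 of the 1397 called lower were in none. Outside the lists, some abundant genes of known role were Fth1, the ferritin heavy chain that stores iron (3269 CPM at P1), and Tfrc, the transferrin receptor that imports it (719 CPM at P1), both called higher, and Ptges3, a cochaperone (5116 CPM at E12.5), and Dpysl2, a microtubule regulator (1649 CPM at E12.5), both called lower. These 4 were chosen after their values were seen.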

How the data were processed

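Single αMHC+ cells were captured on the Fluidigm C1 system. The authors aligned reads with OLego and deposited gene counts per cell, for which the submitters' notes name featureCounts and the builds GRCm38 and mm10, and TPM, which served as an alternative here. Neither the handling of multi-mapped reads nor of strand is given in the sources used here.

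CPM was computed per cell over all genes, and each cell was also thinned to 100000 counts (seed 1) with python 3.11.15, numpy 2.4.6, pandas 2.3.3 and scipy 1.17.1. Figures used matplotlib 3.10.9, and TMM factors came from edgeR 4.0.16 in R 4.3.3. Shares carry exact binomial (Clopper-Pearson) and pooled counts exact Poisson intervals, both at 95%. A group at 0 was set against a floor of 3 counts over its summed total (0.365 CPM for the E12.5 cells, 0.454 CPM for the P1 cells), and genes with 1 to 3 counts were given by the interval of the pooled ratio. The calculations were tested on simulated data. With 1 sample of cells per age, no test was made.

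The cells and the gene lists were chosen with earlier results of these data known. Named genes were to be, in each direction, the 20 largest ratios among called genes at 100 CPM or more and found in 50% or more of the thinned cells of the higher group, the 3 most changed called genes per direction and 3 most abundant genes of each list, the members of the isoform pairs, the 4 genes that dropped a cell and the 10 most abundant genes. Other genes named in the report lie outside that rule and were picked after their values were seen. Alternatives covered the scaling, thinning seed, filters, fold, the cells used and the leading cells and genes. Results for some genes are not reported here.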

Additional observations from a re-analysis of the deposited data

Results flagged for a closer look

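The P1 cell that was left out for its low cardiomyocyte genes held signal that the kept P1 cells lacked. Its 12 endothelial markers summed to 10182 CPM, with 9 of the 12 found, against at most 59.7 CPM in a kept P1 cell. Emcn (6165 CPM) and Pecam1 (797 CPM), surface proteins of vessel and endocardial cells, had no count in any kept P1 cell. Its fibroblast markers summed to 112 CPM from 1 of 10 genes, against 0 in the kept cells, and its neural and glial markers to 228.5 CPM from 1 of 8 genes, against at most 130 CPM. Its 9 cardiomyocyte markers summed to 287 CPM, where the lowest kept P1 cell had 46343 CPM.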

How the results depend on the processing

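With 1 sample of cells per age, the number of cells and the depth of P1 cells limit the precision, and genes near 1 count per cell depend on the thinning draw. No paired analysis was possible because the labels give no replicate that the ages share. Of 134 counts of genes under the alternatives, 114 stayed within 1.5 times the main count, and 750 of 768 list sums and 3180 of 3276 values of named genes moved by less than their spread over cells. These tallies include the thinning draws and a setting that left out no cell, so they say little on the choice of cells. With N523 in place of set C, 24 list sums stayed within that spread, 7 moved and 1 reversed. Of the named genes 194 stayed, 43 moved and 15 reversed. Over 11 thinning draws, 754 to 773 genes were called higher, 1375 to 1405 lower, 24 to 28 gained and 51 to 62 lost. Genes called higher numbered 447 with the deposited TPM, 2239 without a filter on low counts, 222 at an average of 100 CPM or more, 262 at 4-fold, 1271 against the N523 cells and 497 without the highest cell of each gene. Genes called lower numbered 3748 without the filter, 406 at 100 CPM or more, 479 at 4-fold and 803 without the highest cell. Genes gained numbered 12 at 100 CPM or more and 15 with all 29 E12.5 cells. Genes lost numbered 11 at 100 CPM or more, 35 with all 29 E12.5 cells and 19 against N523, of which 5 were also lost against set C. Genes with every P1 cell above every E12.5 cell numbered 2 with thinning seed 2, 7 with a P1 minimum of 3000 genes and 0 with the left-out P1 cell kept, and genes with every E12.5 cell above numbered 6 against N523 and 2 without cells whose titles end in no. The log2 ratio of the thick filament sum was 0.089 with TPM and -0.18 without its 3 leading genes, and that of the fatty acid sum 1.95 without its 3 leading genes. Without the 3 leading genes of each list, 8 list sums moved by their spread or more and 24 did not. Lower numbers under stricter filters and folds follow from fewer genes being eligible, and the cause of the other shifts was not tested. Leaving out the E12.5 cell with the most genes was chosen after seeing the data.

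Among named genes that were called, log2 ratios changed sign for Itga5 with a P1 minimum of 3000 genes (-0.18), for Fabp5 (0.60) and Tpm4 (0.037) with the left-out cell kept, for Sgca (-0.79) and Dsc2 (-0.15) with all 29 E12.5 cells, and for Esrrg without the highest cell of each gene (0.60). Against N523 they changed sign for Sgca (-2.64), Lmcd1 (1.27), Sln (-0.045), Kcnj5 (5.32), Dsc2 (-1.89), Pdk2 (-0.28), Thra (1.90), Esrrg (0.89), Mgst3 (-0.095), Ccng1 (-0.49), Cdkn2d (0.34), Igf2bp3 (1.00), Tbx18 (0.23), Rbpms (0.74) and Mpped2 (1.47), and for the sum of the antigen presentation list (-0.067). Sums with a smaller main log2 ratio also crossed 0 under at least 1 alternative. These were splicing regulators (main -0.74, highest 0.27), metabolic regulators (-0.067, highest 0.75) and nuclear noncoding RNAs (0.90, lowest -0.57). The others were the Z-disc (0.27, lowest -0.0061), thick filament (1.00, lowest -0.18) and antioxidant lists (0.017, lowest -0.39).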
